A study of Homo sapiens with 3 samples.

Results

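The 8 genes described here encode proteins that bind the growing plus end of microtubules, and they were taken by name from the deposited gene values. They are CLASP1 and CLASP2, CLIP1 and CLIP2, MAPRE1, MAPRE2 and MAPRE3, and CKAP5. All 8 were listed, out of 23284 gene names. RNA-seq had been carried out on 293T cells, also called HEK293T, a human embryonic kidney cell line. Every library came from cells made to express dCas9-VP64, a Cas9 that cannot cut DNA joined to the VP64 transcriptional activator. The cells also received the parental guide RNA vector (mock), sgL1ASP #1 or sgL1ASP #3, the last 2 being guide RNAs aimed at the antisense promoter (ASP) of the LINE-1 (L1) retrotransposon. The study's methods describe transient transfection, so each library can mix cells that did and did not take up the plasmids. In such bulk samples, fewer expressing cells and less RNA per cell cannot be told apart. The study compared these transcriptomes to find genes that respond to L1 ASP activation, and CLASP1 was among the cell cycle genes it took further.

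Microtubules grow and shrink mainly at their plus ends. The end-binding (EB) proteins, encoded by the MAPRE genes, recognise the growing end and recruit most other plus-end proteins to it. CLASP proteins slow shrinkage and favour rescue, CLIP proteins link plus ends to membranes and to dynactin, and CKAP5 (chTOG) adds tubulin to the growing end. In dividing cells these proteins shape the spindle and its attachment to kinetochores.

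Each condition was sequenced as 1 library. Differences between them were therefore not set against a spread between replicates, and p-values are left out. The values are FPKM, in which fragments are divided by exon length and by library size, so levels of different genes can be compared per length. The spacing of the lowest values gave an estimated depth, in units of 1000000 reads, of 10.4 for mock, 10.3 for sgL1ASP #1 and 8.68 for sgL1ASP #3. From this depth and the longest annotated transcript, reads per gene were estimated, and every 95% interval below is the interval of a ratio of such counts. It covers counting error only. The sum of all FPKM was 619903 with mock, 661449 with sgL1ASP #1 and 673483 with sgL1ASP #3. Of 7 genes known from HEK293T cells, 6 had mean FPKM at least 1, led by VIM and KRT8, and PAX2 had FPKM 0.52 in mock and at most 0.66 with a guide. The 6 markers of blood, liver, muscle and endothelial cells summed to FPKM 0.69 to 1.01 per library, and 3 of them were listed at 0 in every library. L1 and ORF0 transcripts were not analysed here, so the action of the guides was not checked in these libraries.

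CLASP1, a cell cycle gene that the study followed among others, was nearly level across the libraries. Its FPKM was 9.40 with mock, 9.70 with sgL1ASP #1 and 9.63 with sgL1ASP #3. Mock was the lowest of the 3, and the libraries lay within a few percent of each other. The FPKM ratio to mock was 1.03 with sgL1ASP #1 (95% interval 0.933 to 1.14) and 1.02 with sgL1ASP #3 (0.922 to 1.14). Both intervals held 1, and the upper bound of both was 1.14-fold. Between the guides the ratio was 1.01 (0.907 to 1.12), so each step lay well below 1.5-fold. An estimated 780 reads of mock, 794 of sgL1ASP #1 and 664 of sgL1ASP #3 stood behind these values. On the log2(FPKM + 0.1) scale the change was 0.05 with sgL1ASP #1 and 0.03 with sgL1ASP #3. The sign of these changes depended on the scaling, since both were negative after the libraries were given an equal FPKM sum (-0.05 and -0.08) or an equal HPRT1 value (-0.0031 and -0.0026). An equal sum lowers all genes alike, to a median of -0.092 with sgL1ASP #1 and -0.12 with sgL1ASP #3, and an equal HPRT1 value to -0.05 and -0.04. Since all genes move alike, the place of CLASP1 above that median is set by the deposited values and is no further check. HPRT1, a purine salvage enzyme gene, was the reference of the study's real-time RT-PCR. By that assay the study reported that CLASP1 expression was affected in guide-treated cells. The FPKM here did not show a change beyond counting error, and the reason for the difference was not tested. HPRT1 had FPKM 112.7 with mock, 116.6 with sgL1ASP #1 and 115.7 with sgL1ASP #3. The ratio of CLASP1 to HPRT1 was 0.0834 with mock, 0.0832 with sgL1ASP #1 and 0.0832 with sgL1ASP #3, which is the most even ratio among the 4 gene pairs compared.

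CLASP1 lies on the minus strand of chromosome 2 of GRCh37, from 122095352 to 122407052, and is the longest of the 8 genes, with a span of 311.7 kb and 41 exons in its MANE Select transcript. RNU4ATAC, a small nuclear RNA gene of the minor spliceosome, lies on the other strand in an intron of CLASP1, from 122288457 to 122288583. It was listed at 0 in mock and sgL1ASP #1 and had FPKM 31.2 in sgL1ASP #3. RNU4ATAC is 127 bases long, shorter than a usual fragment, so a few reads can give such a value. The long noncoding RNA genes CLASP1-AS1 and NIFK-AS1 overlap exons of CLASP1 on the other strand. Over the 3 libraries, the genes with FPKM nearest to that of CLASP1 were SH3PXD2B, B4GALT4 and PCYT2, at a summed log2 difference of 0.029, 0.036 and 0.040. With 3 libraries this likeness is one of level more than of pattern.

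CLASP2, the paralog of CLASP1, was higher in level than CLASP1 in every library. Its FPKM was 13.5 with mock, 12.5 with sgL1ASP #1 and 12.4 with sgL1ASP #3. Here mock was the highest library, the reverse of CLASP1. The ratio to mock was 0.930 with sgL1ASP #1 (0.849 to 1.02) and 0.918 with sgL1ASP #3 (0.834 to 1.01), so both intervals held 1. CLASP1 made up 41.1% of the summed FPKM of the pair with mock, 43.7% with sgL1ASP #1 and 43.8% with sgL1ASP #3. The CLASP1 to CLASP2 ratio was thus shifted from mock by 0.15 (counting SE 0.098) and 0.16 (counting SE 0.10) on the log2 scale. Rescaling a library cannot move such a ratio. The summed CLASP FPKM was 22.9 with mock, 22.2 with sgL1ASP #1 and 22.0 with sgL1ASP #3.

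**Figure D1:**
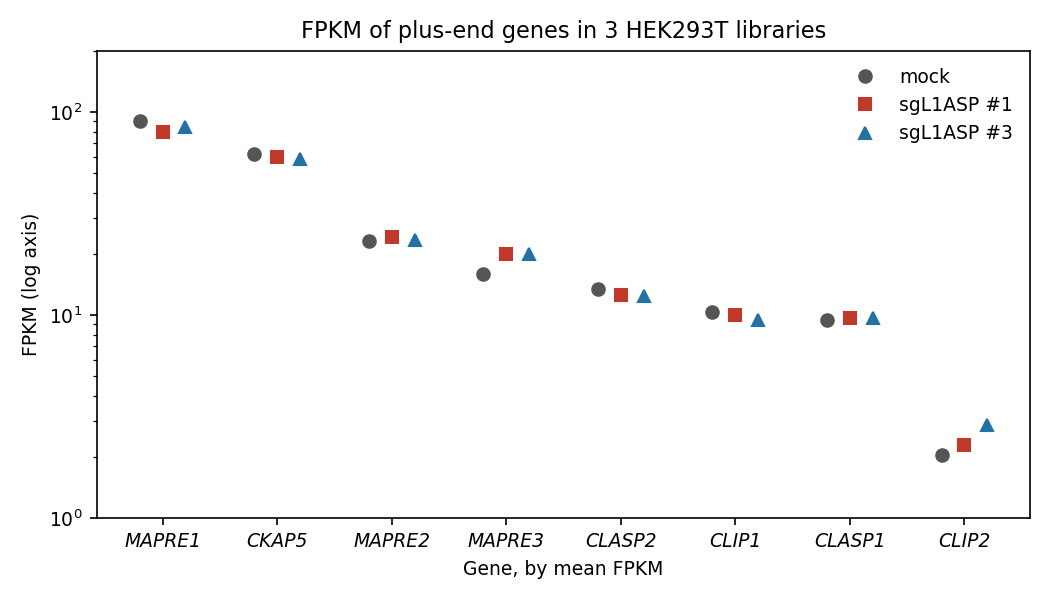
FPKM (log axis) of the 8 genes in the mock, sgL1ASP #1 and sgL1ASP #3 libraries, 1 point per library, ordered by mean FPKM. MAPRE1 is at the top with FPKM 79.8 to 90.0, CLIP2 is lowest with 2.05 to 2.88, and the 3 points of CLASP1 lie between 9.40 and 9.70.

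The 8 genes covered a wide range of levels, and their order by mean FPKM was MAPRE1, CKAP5, MAPRE2, MAPRE3, CLASP2, CLIP1, CLASP1 and CLIP2. MAPRE1 stood at the 91.8 percentile of the 12830 genes with mean FPKM at least 1, CLASP1 at the 42.4 percentile and CLIP2 at the 11.8 percentile. CLIP1 and CLASP1 were the neighbours in this order that counting error did not separate in any library. The ratio of CLIP1 to CLASP1 was 1.10 in mock (0.991 to 1.23), 1.03 in sgL1ASP #1 (0.928 to 1.15) and 0.979 in sgL1ASP #3 (0.868 to 1.10). For each of the other neighbouring pairs the interval left out 1 in all 3 libraries. The pair closest in level after these was MAPRE2 and MAPRE3 in sgL1ASP #3, with a ratio of 1.17 (1.03 to 1.35), which was 1.45 in mock. MAPRE3 and CLASP2 were at a ratio of 1.18 in mock (1.03 to 1.35), and at 1.60 in sgL1ASP #1 and 1.61 in sgL1ASP #3.

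The EB genes MAPRE3 and MAPRE1 were the members whose difference from mock exceeded counting error with both guides, MAPRE3 upward and MAPRE1 downward. The share of all genes that did so with both guides was not counted. It was 20.3% with sgL1ASP #1 and 18.8% with sgL1ASP #3, each taken alone. MAPRE3 (EB3) had FPKM 15.9 with mock, 20.0 with sgL1ASP #1 and 19.8 with sgL1ASP #3. The guide libraries were close to each other and both lay above mock. The ratio to mock was 1.26 with sgL1ASP #1 (1.07 to 1.48) and 1.25 with sgL1ASP #3 (1.05 to 1.47). With the median length of the protein-coding transcripts these intervals were 1.03 to 1.54 and 1.01 to 1.53, so they barely left out 1. Among the 12830 genes of the background, the changes of MAPRE3 ranked at the 95.2 and 94.9 percentiles. MAPRE1 (EB1), the main EB gene of most dividing cells, was lower with both guides, with FPKM 90.0 with mock, 79.8 with sgL1ASP #1 and 84.2 with sgL1ASP #3. Its ratio to mock was 0.887 with sgL1ASP #1 (0.834 to 0.943) and 0.936 with sgL1ASP #3 (0.879 to 0.997), at the 13.7 and 24.5 percentiles. MAPRE2 (EB2) had FPKM 23.1 with mock, 24.2 with sgL1ASP #1 and 23.3 with sgL1ASP #3, and both of its intervals against mock held 1. Its log2 change was 0.07 and 0.01, and after an equal sum it was -0.03 and -0.11. MAPRE1 stayed below mock and MAPRE3 above it under all 5 alternatives of scaling and pseudocount. After an equal sum the log2 change of MAPRE3 was 0.24 and 0.20, beside 0.33 and 0.32 as deposited. Intervals were not computed again for these alternatives. The mock library is shared by both comparisons, so the second guide does not repeat the first independently.

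Within the EB family the balance between paralogs therefore differed between mock and both guide libraries. MAPRE1 made up 69.7% of the summed EB FPKM with mock, 64.3% with sgL1ASP #1 and 66.1% with sgL1ASP #3. MAPRE3 made up 12.3% with mock, 16.1% with sgL1ASP #1 and 15.6% with sgL1ASP #3. The MAPRE3 to MAPRE1 ratio was 0.177 with mock, 0.251 with sgL1ASP #1 and 0.236 with sgL1ASP #3. These are shifts from mock of 0.50 (counting SE 0.12) and 0.41 (counting SE 0.13) on the log2 scale. This pair sets the EB gene above mock against the one below it, and both shifts share 1 mock library. The shifts therefore restate the changes of the 2 genes and are no separate support for them. The summed EB FPKM was 129.0 with mock, 124.0 with sgL1ASP #1 and 127.3 with sgL1ASP #3, a change of -0.06 and -0.02 on the log2 scale. MAPRE1 has 3 processed pseudogenes in the annotation, MAPRE1P1, MAPRE1P2 and MAPRE1P3, and how reads that match both were assigned is not given in the sources used here. On GRCh37, MAPRE1 lies on the plus strand of chromosome 20 from 31407760 to 31438211, MAPRE3 on the plus strand of chromosome 2 from 27193505 to 27250087, and MAPRE2 on the plus strand of chromosome 18 from 32556892 to 32723434. Long noncoding RNA genes overlap exons of MAPRE1 and MAPRE3 on the opposite strand, and the counting was strand-specific.

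**Figure D2:**
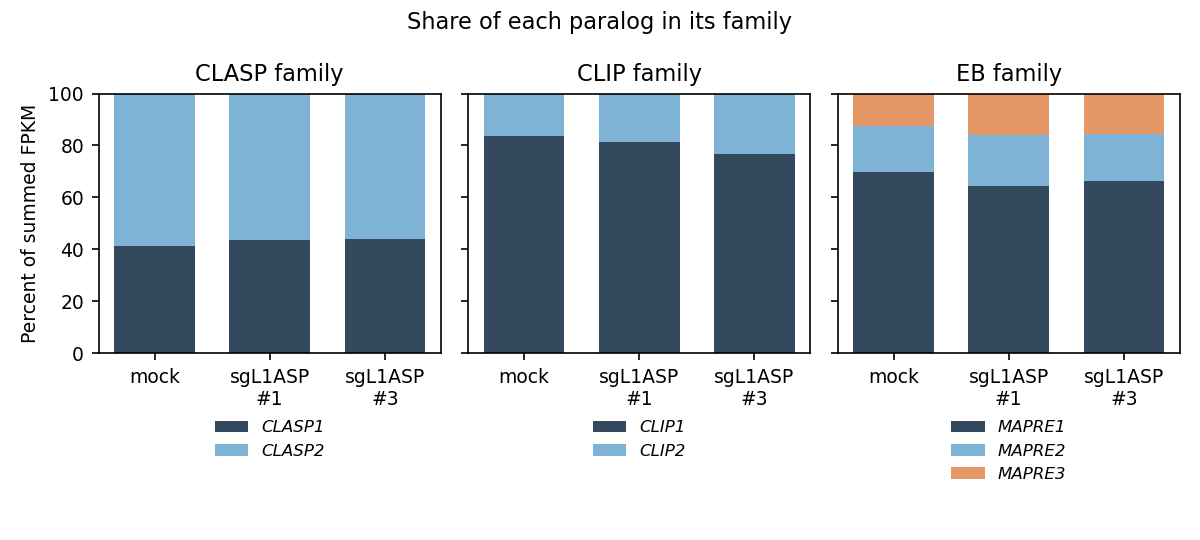
Stacked bars of each paralog's percent of the summed FPKM of its family in the 3 libraries, 1 library per bar, for the CLASP, CLIP and EB genes. MAPRE3 takes 12.3% of the EB sum in mock and 16.1% and 15.6% with the guides, while CLASP1 takes 41.1% to 43.8% of the CLASP sum.

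The CLIP genes carry CAP-Gly domains that bind the tails of EB proteins and tubulin. CLIP1 (CLIP-170) had FPKM 10.4 with mock, 10.01 with sgL1ASP #1 and 9.43 with sgL1ASP #3. Its ratio to mock was 0.965 with sgL1ASP #1 (0.862 to 1.08) and 0.908 with sgL1ASP #3 (0.805 to 1.03). CLIP2 (CLIP-115), best known from neurons, had FPKM 2.05 with mock, 2.30 with sgL1ASP #1 and 2.88 with sgL1ASP #3. Mock was the lowest library and sgL1ASP #3 the highest. Its ratio to mock was 1.12 with sgL1ASP #1 (0.863 to 1.45) and 1.41 with sgL1ASP #3 (1.09 to 1.82), the greatest ratio among the 8 genes, and it rested on 116 reads in mock and 136 in sgL1ASP #3. With the median length of the protein-coding transcripts, which lowers the estimated reads, the sgL1ASP #3 interval was 0.980 to 2.02 and held 1. Between the guides, CLIP2 was lower in sgL1ASP #1 than in sgL1ASP #3 by a ratio of 0.797 (0.618 to 1.02). CLIP2 made up 16.5% of the summed CLIP FPKM with mock, 18.6% with sgL1ASP #1 and 23.4% with sgL1ASP #3, whereas the sum itself was 12.4, 12.3 and 12.3. CLIP1 lies on the minus strand of chromosome 12 from 122755979 to 122907216, and CLIP2 on the plus strand of chromosome 7 from 73703737 to 73820265.

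CKAP5 had FPKM 61.8 with mock, 59.8 with sgL1ASP #1 and 58.3 with sgL1ASP #3. Mock was again the highest library. The ratio to mock was 0.967 with sgL1ASP #1 (0.928 to 1.01) and 0.943 with sgL1ASP #3 (0.903 to 0.986). CKAP5 had the most estimated reads of the 8 genes, 4498 in mock, so its interval was the narrowest and left out 1 with sgL1ASP #3 at a change under 6%. With the median transcript length that interval was 0.813 to 1.10 and held 1. CKAP5 lies on the minus strand of chromosome 11 from 46764598 to 46867859. The name SNORD67, a small nucleolar RNA, is annotated in the introns of CKAP5 at 2 places on the same strand. SNORD67 was listed at 0 in mock and sgL1ASP #3 and at FPKM 65.0 in sgL1ASP #1. These places are 108 and 111 bases long, so a few reads can give such a value, as for RNU4ATAC. CLASP2 lies on the minus strand of chromosome 3 from 33537737 to 33759848.

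**Figure D3:**
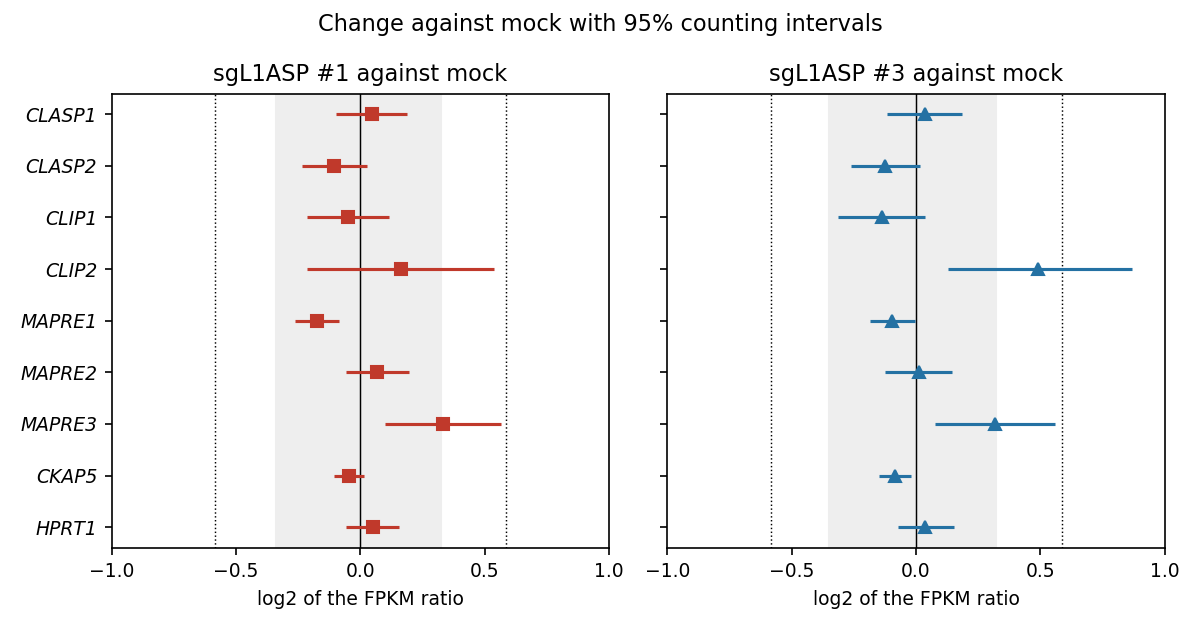
Log2 of the FPKM ratio to mock for the 8 genes and HPRT1 with sgL1ASP #1 (left) and sgL1ASP #3 (right), with lines for the 95% counting interval of 1 library against 1 library. Grey marks the 5th to 95th percentile of the 12830 background genes and dotted lines mark 1.5-fold; no gene reaches 1.5-fold, and the intervals of MAPRE1 and MAPRE3 leave out 0 in both panels.

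Set against all genes, the 8 genes did not pass the 1.5-fold threshold of the study. Past 1.5-fold in either direction were 0 of 8 with sgL1ASP #1 against mock, where 3.85% of the 12830 genes with mean FPKM at least 1 passed. There were 0 of 8 with sgL1ASP #3 against mock, beside 4.08% of all genes, and 0 of 8 between the guides, beside 4.04%. At these background shares a count of 0 among 8 genes is near what the share gives. At a smaller threshold of 1.2-fold, 1 of 8 was higher with sgL1ASP #1 than in mock (MAPRE3), beside 7.23% of all genes, and 0 were lower, beside 7.83%. With sgL1ASP #3, 2 of 8 were higher (CLIP2 and MAPRE3), beside 7.67%, and 0 were lower, beside 8.07%. Between the guides, 0 of 8 were higher in sgL1ASP #1, beside 7.83%, and 1 was lower (CLIP2), beside 7.6%. MAPRE3 was the only member more than 1.2-fold above mock with both guides, which held for 3.28% of all genes. After rescaling to an equal FPKM sum, the member past 1.2-fold with sgL1ASP #1 was MAPRE1, which was lower than mock, beside 4.4% of all genes higher and 14.4% lower. With sgL1ASP #3 it was CLIP2, which was higher, beside 3.99% higher and 17.2% lower.

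The counting interval left out 1 for 2 of 8 members with sgL1ASP #1 (MAPRE1 and MAPRE3), beside 20.3% of the 11699 genes for which it could be computed. With sgL1ASP #3 it left out 1 for 4 of 8 (CLIP2, MAPRE1, MAPRE3 and CKAP5), beside 18.8%. With the median transcript length it left out 1 for 2 of 8 with sgL1ASP #1, beside 9.87% of 11750 genes, and for 2 of 8 with sgL1ASP #3, beside 8.57%. The members' counts are to be read against these shares. FPKM rose by any amount from mock over sgL1ASP #3 to sgL1ASP #1 for 3 of 8 members (CLASP1, MAPRE2 and MAPRE3). The same order held for 16.5% of all genes. It is the order of the study's stepwise rule, without the fold threshold that the rule sets at each step. No member passed 1.5-fold in any comparison, so none met the full rule. That holds for CLASP1 too, although the study gave it as an example of its upregulated genes. After rescaling to an equal FPKM sum the order was found for 1 of 8 members, beside 6.1% of all genes. After rescaling to HPRT1 it was found for 1 of 8, beside 10.3%. The median log2 change of the 8 members was -0.0013 with sgL1ASP #1 and -0.04 with sgL1ASP #3, beside 0.00085 and 0.0015 for all genes. With each guide 4 of 8 members were above mock, beside 50.3% of all genes with sgL1ASP #1 and 50.4% with sgL1ASP #3. After rescaling to an equal FPKM sum 2 of 8 were above mock with each guide (CLIP2 and MAPRE3), beside 25% of all genes with sgL1ASP #1 and 20.8% with sgL1ASP #3. The median absolute change was 0.086 and 0.11 for the members and 0.094 and 0.095 for all genes.

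The genes that work with the plus-end proteins were followed in 5 further lists. Of 31 plus-end network genes, 25 had mean FPKM at least 1, and 0 passed 1.5-fold with either guide, beside 3.85% and 4.08% of all genes. In lists of this size or smaller, a count of 0 is near those shares. The highest in level were DCTN1, the largest dynactin subunit, with FPKM 74.6 with mock, 75.2 with sgL1ASP #1 and 76.6 with sgL1ASP #3, and TACC3, the spindle partner of CKAP5, with 41.2, 40.4 and 41.6. Both were level within a few percent. Of the 25, only TTBK2, a kinase gene, passed 1.2-fold, with FPKM 4.198 in mock and 3.33 in sgL1ASP #1, and 3.70 in sgL1ASP #3. Of all genes, 15.1% passed 1.2-fold with sgL1ASP #1 and 15.7% with sgL1ASP #3. The median log2 change of this list was -0.07 with sgL1ASP #1 and -0.0082 with sgL1ASP #3.

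All 12 CLASP anchors and regulators had mean FPKM at least 1 and 0 passed 1.5-fold, beside the same 3.85% and 4.08%. GSK3A, a kinase related to GSK3B, which phosphorylates CLASPs, had FPKM 76.3 with mock, 75.02 with sgL1ASP #1 and 77.6 with sgL1ASP #3. PPFIA1, a liprin of the cortical platform, had FPKM 30.8, 30.5 and 31.6. Past 1.2-fold below mock were KANK1 with sgL1ASP #1 (FPKM 4.45, and 5.70 in mock) and ERC1 with sgL1ASP #3 (FPKM 5.54, and 6.69 in mock). Lower past 1.2-fold were 7.83% of all genes with sgL1ASP #1 and 8.07% with sgL1ASP #3. With the other guide, KANK1 (FPKM 5.07 with sgL1ASP #3) and ERC1 (FPKM 5.66 with sgL1ASP #1) were within 1.2-fold of mock. The other genes of the list stayed within 1.2-fold with both guides. KANK1 and ERC1 are both parts of the cortical complexes that hold CLASPs near adhesions. The median log2 change of the list was -0.03 with sgL1ASP #1 and -0.05 with sgL1ASP #3.

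Of the 12 alpha and beta tubulin genes, 1 passed 1.5-fold with sgL1ASP #1 and 0 with sgL1ASP #3, beside 3.85% and 4.08% of all genes. It was TUBB3, the only gene of the 5 lists with mean FPKM at least 1 to pass. TUBB3, a beta tubulin known from neurons, had FPKM 8.32 with mock, 5.24 with sgL1ASP #1 and 6.09 with sgL1ASP #3. Both guide libraries were below mock. Its log2 change was -0.66 with sgL1ASP #1 (-0.89 to -0.44) and -0.44 with sgL1ASP #3 (-0.68 to -0.22), and it passed 1.5-fold with sgL1ASP #1 alone, a difference between the guides that was not tested. TUBB and TUBA1B, the most abundant, had FPKM 618.3 and 368.3 in mock, 626.9 and 343.5 in sgL1ASP #1, and 665.8 and 371.8 in sgL1ASP #3. TUBB4A was more than 1.2-fold above mock with sgL1ASP #3, beside 7.67% of all genes, with FPKM 10.3 in mock and 13.1 there.

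Of 17 lattice-binding MAP genes, 13 had mean FPKM at least 1, and 0 of these passed 1.2-fold with either guide, beside 15.1% of all genes with sgL1ASP #1 and 15.7% with sgL1ASP #3. MAP4 had FPKM 35.1 with mock, 36.1 with sgL1ASP #1 and 36.8 with sgL1ASP #3, and MAP7D1, of the family that recruits kinesin-1, had 33.3, 37.4 and 36.6. Of 13 destabiliser and severing enzyme genes, 10 had mean FPKM at least 1 and 0 passed 1.5-fold, beside 3.85% and 4.08% of all genes. STMN1 (stathmin), which binds free tubulin, had FPKM 339.9, 338.7 and 330.5. Only KATNAL2 passed 1.2-fold, lower with sgL1ASP #3, with FPKM 2.17 with mock, 2.35 with sgL1ASP #1 and 1.57 with sgL1ASP #3. The median log2 changes of both lists lay between -0.03 and 0.03.

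**Figure D4:**
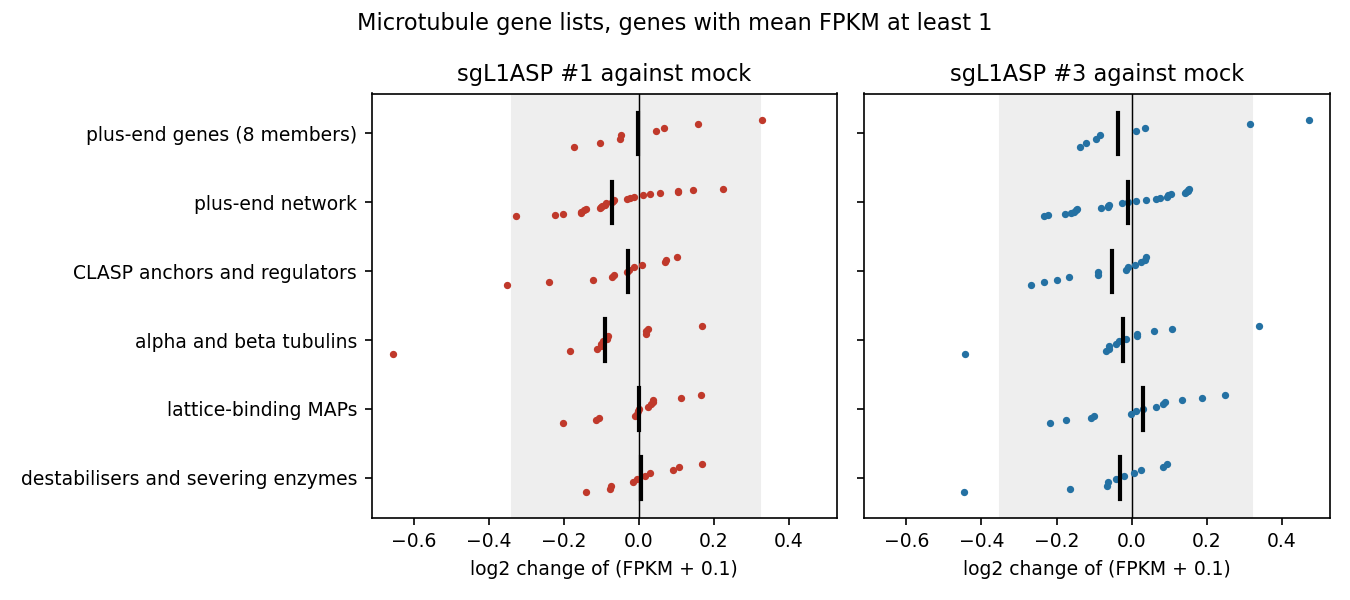
Log2 change of (FPKM + 0.1) against mock for the 8 members and for the genes of 5 microtubule lists with mean FPKM at least 1, 1 point per gene, with the list median as a black bar. Grey marks the 5th to 95th percentile of all genes; the tubulin point outside it on the left in both panels is TUBB3, at -0.66 and -0.44.

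The sequence before the start of transcription is shown for MAPRE1, MAPRE3 and CLIP2. These 3 members had the largest changes from mock when each gene is ranked by its larger change with a guide. With sgL1ASP #3 alone, CLIP1 and CLASP2 changed more than MAPRE1. RefSeq promoter windows of GRCh38.p14, from 250 bases before to 50 after a start, matched all 8 members, with 12 windows in all because CLASP2, MAPRE2 and MAPRE3 have several. These coordinates are of another build than the gene positions above. The capitals mark a match to CCAAT, to the GC box GGGCGG or to TATAAA on either strand.

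MAPRE1, CCAAT on the opposite strand, chr20:32819733-32819762, plus strand: aggcgggacctcATTGGctgcgaccgacca

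MAPRE1, TATAAA, chr20:32819851-32819880, plus strand: tgagaccctctcTATAAAaggagccggcgg

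MAPRE3, GC box on the opposite strand, chr2:26970581-26970610, plus strand: ggtgccctggccCCGCCCcgctcggactga

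CLIP2, GC box on the opposite strand, chr7:74289316-74289345, plus strand: aaaaccgcgaggCCGCCCacgcgcgcctga

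CCAAT was found in 6 of the 12 windows, beside 34.6% of 35116 windows of the same length, GGGCGG in 7 of 12, beside 45.0%, and TATAAA in 2 of 12, beside 11.5%. MAPRE1 was the only one of these 3 genes with TATAAA in its window. The members' windows had a median of 28.5 CpG and 67.3% GC, beside 14 CpG and 58.7% GC over all windows. They ranged widely, and 3 of the 12 were below the median CpG of all windows, namely CLASP2 windows with 1 and 7 CpG and a MAPRE3 window with 4. By GC these 3 and the CLASP1 window, at 57.3%, were below the median of all windows. A match describes the letters in a window and says nothing of a factor that binds there.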

How the data were processed

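Total RNA of 293T cells was made into TruSeq stranded mRNA libraries and sequenced by the authors on an Illumina HiSeq instrument as single-end reads. Per the labels, TopHat2 2.0.13, Bowtie2 2.2.3 and SAMtools 0.1.19 were used with hg19, and FPKM were calculated with Cuffdiff of Cufflinks 2.2.1 in strand-specific mode. The authors deposited 1 FPKM value per gene name and library; the annotation and the scaling between libraries are not given in the sources used here. Each of the 3 samples was put in its condition from its title.

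FPKM were used as deposited. Ratios had no pseudocount, and log2 changes used a pseudocount of 0.1. The background was every gene with mean FPKM at least 1. Reads were estimated from the FPKM that 1 read is worth, with 200 bases taken off the longest GENCODE 44 transcript on GRCh37. That worth was read in mock from genes with 1 transcript over 1000 bases, and in the other libraries from the commonest ratio to mock below FPKM 0.3. Intervals came from the exact binomial interval of the split of reads. The depth estimate, the interval formula and the 1.5-fold threshold were tried on simulated Poisson counts. There the intervals were given the simulated counts and depths. How well reads are recovered from the deposited FPKM was therefore not tested. Intervals cover counting error only, and reads without molecular identifiers are not independent molecules.

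The members and lists were chosen with earlier results of these data known. Named genes are the members, HPRT1, listed genes inside a member, the 2 highest of each list and its genes past 1.5-fold, and the 3 nearest to CLASP1. List genes past 1.2-fold were named after their values were seen. A gene that this rule names is not reported here. Of 31 plus-end network genes, 2 were found under an older name. Protein sequences were not used here. Values were computed in Python 3.11.15 with pandas 2.3.3, NumPy 2.4.6 and SciPy 1.17.1, and drawn with matplotlib 3.10.9.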

Additional observations from a re-analysis of the deposited data

How the results depend on the processing

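No paired analysis was possible because there is 1 library for each condition. Of 133 alternative values, 117 stayed within their counting interval or within 1.5 times the reported count. A value could do so with the other sign. That was so for 4 of 16 member changes after an equal FPKM sum and 3 of 16 after rescaling to HPRT1. When the FPKM of a library were made to sum to 1000000, the median log2 change over all genes became -0.092 with sgL1ASP #1 and -0.12 with sgL1ASP #3. With it the members' median with sgL1ASP #3 was -0.16, 1 member passed 1.2-fold with sgL1ASP #3 against mock, beside 21.2% of all genes, and 1 followed the order mock, sgL1ASP #3, sgL1ASP #1, a count that was also 1 after rescaling to HPRT1. The same rescaling gave -0.27 and -0.21 for MAPRE1, and -0.14 and -0.20 for CKAP5. These shifts follow from the rescaling. The CLASP1 change ranged from -0.048 to 0.045 with sgL1ASP #1 and from -0.084 to 0.035 with sgL1ASP #3. With a pseudocount of 1, 0 members passed 1.2-fold between the guides, beside 10.6% of all genes. With the median protein-coding transcript length, 2 members had an interval without 1 with sgL1ASP #3 against mock, beside 8.57% of all genes. Fewer reads are then estimated. The share of genes past 1.5-fold was 2.11%, 2.19% and 2.19% when all 3 libraries had to reach FPKM 1, and 11.9%, 12.0% and 11.8% with every gene above 0, for sgL1ASP #1 against mock, sgL1ASP #3 against mock and sgL1ASP #1 against sgL1ASP #3. The depth limits CLIP2 most, with 116 reads in mock.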
